A study of Homo sapiens with 12 samples.

Results

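Of 61533 gene entries per library, 9 genes of the RB, p53 and G1 cyclin network were followed across 4 lines of HMLE cells. They were chosen by name: the pocket protein genes RB1 and RBL1, the inhibitor genes CDKN2A and CDKN2B, the cyclin genes CCND1, CCNE1 and CCNE2, the transcription factor gene E2F1, and MDM2. HMLE cells are mammary epithelial cells of human origin that were made immortal with the catalytic subunit of telomerase and the early region of SV40. Per the labels, 1 line carried a control construct, 1 overexpressed CT83 and 1 HORMAD1, and a line called double here overexpressed the pair. Each line was selected with puromycin. HORMAD1 acts on chromosome axes in meiosis, and CT83 is a cancer/testis antigen. All 4 lines thus share the SV40 antigens, telomerase and the selection, and the control line is not free of them. The labels give neither the promoter of the transgenes nor whether a line is a clone or a pool, and each construct was present in 1 line. Each line had 3 libraries of polyadenylated RNA, 12 in all. Nothing in the labels says that they came from separate cultures, so p-values measure the spread between libraries, which may be technical.

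The pocket proteins RB and p107 (the product of RBL1) bind E2F transcription factors and hold E2F target genes silent until cyclin D with CDK4 or CDK6, and then cyclin E with CDK2, phosphorylate them. The CDKN2A and CDKN2B genes encode p16 and p15, which inhibit CDK4 and CDK6, and from a separate first exon CDKN2A also encodes p14ARF, which inhibits MDM2. MDM2 is the ubiquitin ligase that marks p53 for destruction, and its own gene is a p53 target. The SV40 large T antigen binds the pocket proteins and p53, and it releases E2F factors from the pocket proteins. SV40 transcripts were not analysed here.

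Stretches before the starts of E2F1, RBL1 and MDM2 are shown because they hold letters that match the words E2F factors and p53 are known to bind. They come from RefSeq on GRCh38.p14 and run 5′ to 3′ on the strand of the gene, up to the last base before the start. For E2F1 (chr20:33686386-33686485, minus strand) and RBL1 (chr20:37095998-37096097, minus strand), capitals mark matches to an E2F word of 8 letters. For MDM2 (chr12:68808914-68809023, plus strand), the stretch lies before the internal start at 68809024, and capitals mark a pair of matches to the p53 site of 20 letters, with 2 and 3 mismatches.
E2F1: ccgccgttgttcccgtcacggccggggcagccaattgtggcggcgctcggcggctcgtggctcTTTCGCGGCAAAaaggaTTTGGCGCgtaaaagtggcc
RBL1: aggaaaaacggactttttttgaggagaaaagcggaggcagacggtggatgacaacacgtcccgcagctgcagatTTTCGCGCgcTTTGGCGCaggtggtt
MDM2: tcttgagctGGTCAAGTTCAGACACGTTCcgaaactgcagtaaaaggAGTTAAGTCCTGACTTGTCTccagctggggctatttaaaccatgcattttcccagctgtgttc

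The E2F words searched on both strands were TTTCCCGC, TTTCCCGG, TTTCGCGC, TTTCGCGG, TTTGCCGC, TTTGCCGG, TTTGGCGC and TTTGGCGG. Of 35116 RefSeq windows from 250 bases before to 50 after a start, 6.19% held at least 1 of them. The E2F1 window held 3 matches, starting at -37, -33 and -20 from the start, and the first and second of them share bases. The RBL1 window held 2, at -26 and -16. The CDKN2B window held 1, TTTGCCGG at -18, and the pair of windows at the first MDM2 start held 1 (GCGCCAAA, the complement of TTTGGCGC). The p53 site, searched with at most 3 mismatches, was found in 5.2% of all windows. It occurred in the windows of the internal MDM2 start (2 matches, at -101 and -63 in the one printed), in the CDKN2B window (1 match at -156) and in the window of an internal RB1 start (1 match at -96). Windows of 7 of the 9 genes were searched. CCND1 and CCNE2 had no window, and for RB1 only the internal start had one. The CCNE1 window and both CDKN2A windows held 0 matches to the E2F words and 0 to the p53 site. A match describes the letters of a window and does not show binding in these cells.

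The libraries held 9898845 to 14159740 counts after rounding of the deposited expected counts. Levels are given as CPM (counts scaled to a common library size) after TMM scaling, and 15616 genes passed the filter on low counts, the 9 network genes among them. The transgenes followed the labels: HORMAD1 and CT83 had 0 counts in every library of the lines without them. CT83 stood at 86.7 to 117.8 CPM in the double line against 400.2, 446.1 and 723.7 CPM in the CT83 line (replicates 1 to 3). HORMAD1 stood at 202.8, 332.1 and 335.1 CPM in the HORMAD1 line and at 283.0, 312.5 and 346.5 CPM in the double line. Markers matched mammary epithelium: 5 basal markers (among them KRT5 and TP63) summed to 4716 to 6558 CPM, 3 endothelial markers to 0.191 to 1.35 CPM, 3 leukocyte markers to 4.13 to 7.98 CPM and 6 fibroblast markers to 24.9 to 86.5 CPM. Summed luminal markers stood at 3598 to 4081 CPM in control, 2989 to 3209 in CT83, 3114 to 4061 in HORMAD1 and 2798 to 3363 in the double line. The sum was carried by KRT8 and KRT18, while KRT19 stood at only 0.17 to 1.49 CPM and GATA3 at 8.46 to 16.1 CPM. The part of luminal markers in the results was not tested. Transcript length had a trend in some libraries, measured as the slope of log2 CPM, relative to the mean of all libraries, per 10-fold longer merged exons. The slope was highest in HORMAD1 replicate 1 (0.22), CT83 replicate 3 (0.19) and control replicate 2 (0.11), and in the other 9 libraries it lay between -0.16 and 0.02.

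No network gene passed the threshold (Benjamini-Hochberg adjusted p under 0.05, edgeR quasi-likelihood test on all 12 libraries) in any comparison of lines. This was 0 of 9 genes against control in the CT83 line (0.0064% of all genes were called), the HORMAD1 line (0.0064%) and the double line (0.0256%). It was also 0 of 9 in the double line against CT83 (0.0064%) and against HORMAD1 (0.0448%), and in HORMAD1 against CT83 (0.0128%). A test for any difference among the 4 lines called 0 of 9 (0.0448%). The interaction, which asks whether both transgenes together differ from the sum of their single effects on the log2 scale, called 0 of 9 (0% of all genes). CT83 stood lower in the double line than in the CT83 line, so the interaction does not compare equal levels of CT83. At an unadjusted p under 0.05 edgeR picked 2 network genes in the double line against control (5.56% of all genes), 1 against CT83 (8.05%) and 2 against HORMAD1 (7.59%). It picked 1 in HORMAD1 against CT83 (4.64%), 2 in the test over all lines (4.83%) and 0 in the other 3 comparisons (1.82% to 4.5%). DESeq2 and limma-voom also called 0 of 9 in every comparison. Over all genes, DESeq2 called from 1 of 15616 (CT83 against control) to 62 of 14405 (the double line against HORMAD1). Calls by limma-voom ranged from 0 (interaction) to 3 (the double line against HORMAD1) of 15616. With so few calls among all genes, 0 of 9 does not set these genes apart from the background.

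The intervals limit how large a change could have been missed. Over the 27 differences from control, the 95% intervals of single genes lay between -0.69 and 0.45 on the log2 scale. The median difference of the 9 genes from control was -0.03 in the CT83 line, 0.02 in the HORMAD1 line and -0.01 in the double line, beside 0.01, 0.01 and 0 over all genes tested.

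**Figure D1:**
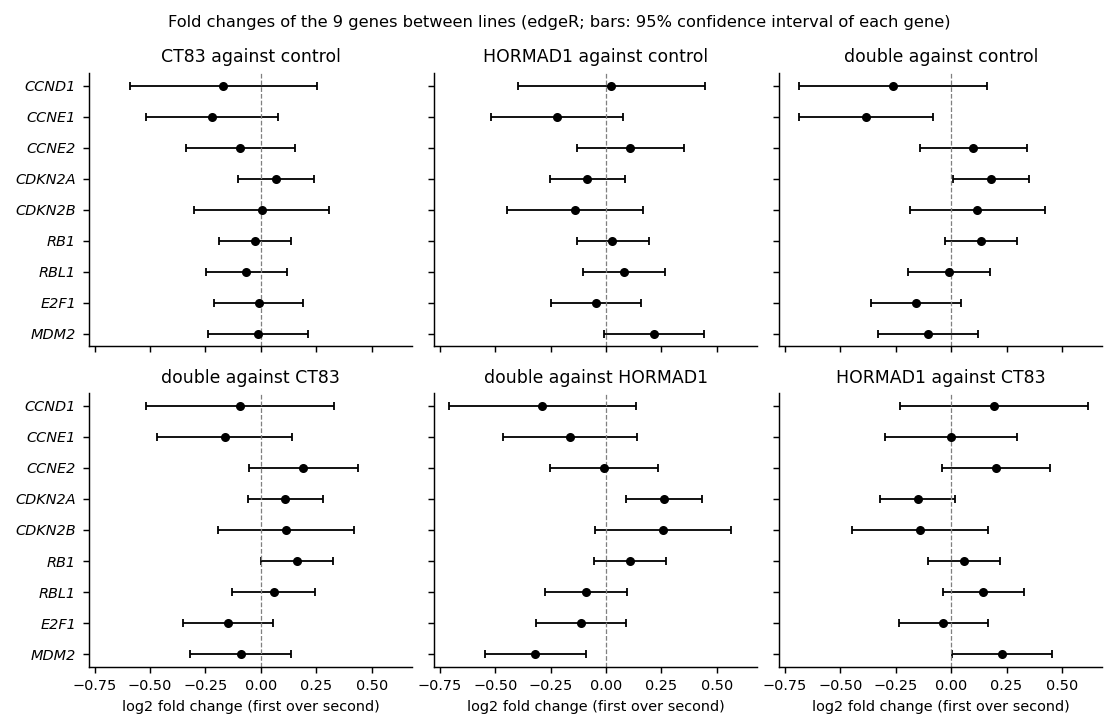
Log2 fold change of each network gene (first line over second) in the 6 pairwise comparisons, from edgeR on 12 libraries. Bars are the 95% confidence interval of each gene. All intervals against control lie between -0.69 and 0.45, and none of the differences passed an adjusted p under 0.05.

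CDKN2A (ENSG00000147889.18, chromosome 9, 21967753 to 21995301, minus strand, GRCh38 in GENCODE 29) was the most abundant of the inhibitor genes. It stood at 201.5, 173.4 and 196.6 CPM in control and at 209.4, 206.4 and 183.4 CPM in CT83 (replicates 1 to 3). In HORMAD1 it stood at 187.7, 179.4 and 172.1 CPM, and in the double line at 215.0, 212.6 and 219.5 CPM. All 3 double libraries lay above the other 9 libraries, while the other 3 lines overlapped with each other. The level was 215.7 ± 3.46 CPM in the double line and 179.8 ± 7.82 CPM in HORMAD1 (SD, n = 3 each). That is 1.20-fold, or 0.26 on the log2 scale (95% interval 0.09 to 0.43, edgeR unadjusted p = 0.0051, adjusted p = 0.353). Against control the double line was 0.18 higher on the log2 scale (95% interval 0.01 to 0.35, edgeR adjusted p = 0.871). The count adds up transcripts that start at both first exons, so p16 and p14ARF messages are not told apart. CDKN2A shares 341 exon bases with the antisense gene CDKN2B-AS1, which had only 13 to 39 counts per library.

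CDKN2B (ENSG00000147883.12, chromosome 9, 22002903 to 22009363, minus strand), the neighbour that encodes p15, stood at 22.6, 23.8 and 24.4 CPM in control and at 26.1, 22.3 and 22.6 CPM in CT83. In HORMAD1 it stood at 27.1, 18.03 and 18.9 CPM, and in the double line at 26.4, 26.8 and 23.5 CPM. HORMAD1 replicate 1 was the highest of all 12 libraries and the other 2 HORMAD1 libraries were the lowest. The 4 lines overlapped, and the largest difference, the double line against HORMAD1, was 0.26 on the log2 scale (95% interval -0.05 to 0.56, edgeR adjusted p = 0.716). CDKN2A exceeded CDKN2B by 6.93 to 9.95 times in CPM in the 12 libraries. MTAP, which lies next to the pair, was listed at a count of 0 in every library. A protein-coding gene on the opposite strand, ENSG00000264545, overlaps the span of CDKN2A by 27549 bases and that of CDKN2B by 6461. It shares 0 exon bases with either and had 917 to 1485 counts per library. How reads were assigned among the genes of this region was not tested, so the count of 0 does not show that MTAP was silent or lost.

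CCND1 (ENSG00000110092.4, chromosome 11, 69641087 to 69654474, plus strand) encodes cyclin D1, the partner of CDK4 and CDK6. It had 9637 to 15316 counts per library, and its libraries spread more than those of any other network gene, 1.73-fold from the lowest to the highest. It stood at 1149, 1251 and 1160 CPM in control and at 845, 856 and 1465 CPM in CT83. In HORMAD1 it stood at 1032, 1275 and 1313 CPM, and in the double line at 855, 971 and 1140 CPM. CT83 thus held both the lowest library and the highest one, and its mean of 1055 ± 355 CPM (SD, n = 3) rests on replicate 3. All 3 double libraries lay below the 3 control libraries, by 0.26 on the log2 scale at the mean (log2 fold change -0.26, 95% interval -0.69 to 0.16, edgeR adjusted p = 0.907). For CT83 against control the log2 fold change was -0.17 with an SE of 0.19, and -0.48 without CT83 replicate 3, with no call in either case.

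LTO1, a gene on the opposite strand, shares 497 exon bases with CCND1, and whether the counting used strand is not given in the sources used here. LTO1 stood at 41.9% to 49.5% of the CCND1 CPM in all 12 libraries, so both followed the same order of libraries closely. Without strand, reads from the shared bases could not be told apart between the 2 genes.

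**Figure D2:**
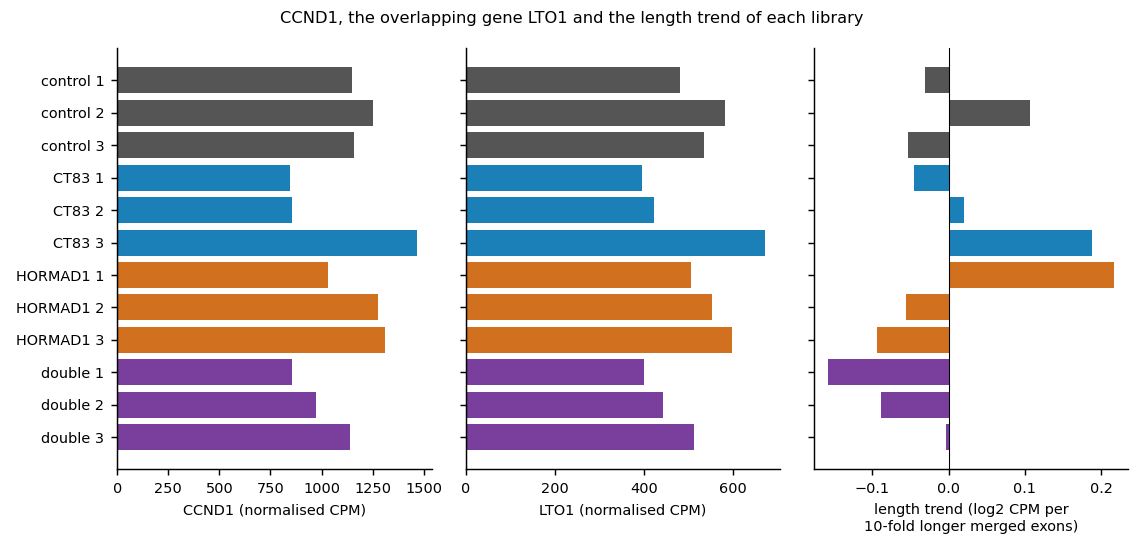
CCND1 (left) and LTO1 (middle) in normalised CPM, and the length trend of each library (right, log2 CPM per 10-fold longer merged exons), for the 12 libraries with replicates in label order. CT83 replicate 3 has the highest CCND1 (1465 CPM) with a trend of 0.19, while HORMAD1 replicate 1, with the steepest trend (0.22), has the lowest CCND1 of its line (1032 CPM).

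CCNE1 (ENSG00000105173.14, chromosome 19, 29811898 to 29824308, plus strand) and CCNE2 encode the E cyclins, the partners of CDK2, and both are known E2F targets. CCNE1 was the least abundant network gene, with 97 to 159 counts per library. It stood at 11.8, 12.4 and 13.4 CPM in control, 9.77, 12.4 and 10.04 CPM in CT83, 10.05, 10.3 and 11.9 CPM in HORMAD1, and 9.32, 9.73 and 9.76 CPM in the double line. The double libraries were the 3 lowest of the 12, although the nearest CT83 library (9.77 CPM) was almost level with them. CCNE1 had the largest difference from control of any network gene: -0.39 on the log2 scale in the double line (0.766-fold, 95% interval -0.69 to -0.08, edgeR unadjusted p = 0.0155, adjusted p = 0.806). The single lines stood at -0.22 each against control (95% intervals -0.52 to 0.08, edgeR).

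CCNE2, on chromosome 8, ranged from 24.3 to 33.7 CPM, with line means of 28.98 ± 1.73 CPM in control, 27.2 ± 2.81 in CT83, 31.3 ± 3.77 in HORMAD1 and 31.1 ± 1.35 in the double line (SD, n = 3 each). All pairs of lines overlapped. The largest difference, HORMAD1 against CT83, was 0.20 on the log2 scale (95% interval -0.04 to 0.45, edgeR adjusted p = 0.978). In the double line CCNE1 and CCNE2 stood on opposite sides of control, at -0.39 and 0.10, and neither passed the test. CCNE2 shares 1629 exon bases with INTS8 on the opposite strand, which had 631 to 883 counts per library against 254 to 400 for CCNE2. Its level therefore carries the same doubt about strand as that of CCND1.

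RB1 (ENSG00000139687.16, chromosome 13, 48303726 to 48599436, plus strand) varied least, 1.19-fold over the 12 libraries. It stood at 99.0, 96.3 and 110.6 CPM in control, 99.9, 101.7 and 98.5 CPM in CT83, 100.3, 101.9 and 110.1 CPM in HORMAD1, and 114.9, 109.4 and 111.7 CPM in the double line. The double libraries lay above the 3 CT83 libraries, by 0.16 on the log2 scale (95% interval 0.00 to 0.33, edgeR unadjusted p = 0.0493, adjusted p = 0.585), and overlapped with control and HORMAD1. RBL1 (ENSG00000080839.12, chromosome 20, 36996349 to 37095995, minus strand), whose window with 2 E2F words is shown above, ranged from 41.5 to 50.4 CPM. Its HORMAD1 libraries (46.4 to 50.4 CPM) lay above the CT83 libraries (41.5 to 45.4 CPM), at 0.15 on the log2 scale (95% interval -0.04 to 0.33, edgeR adjusted p = 0.978), and no other pair of lines was apart.

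E2F1 (ENSG00000101412.13, chromosome 20, 33675683 to 33686404, minus strand), which activates genes of S phase and is itself a known E2F target, ranged from 39.4 to 49.4 CPM. Its line means were 46.6 ± 2.88 CPM in control, 46.3 ± 2.57 in CT83, 45.2 ± 1.74 in HORMAD1 and 41.8 ± 4.198 in the double line (SD, n = 3 each). Double replicates 1 and 3 were the lowest libraries, at 39.4 CPM each, while double replicate 2 stood at 46.6 CPM, within the range of control. The log2 fold change of the double line against control was -0.16 (95% interval -0.36 to 0.04, edgeR adjusted p = 0.900).

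MDM2 (ENSG00000135679.27, chromosome 12, 68808176 to 68850686, plus strand), which joins the network to p53, stood at 73.7, 67.0 and 65.5 CPM in control and at 74.3, 71.2 and 58.7 CPM in CT83. In HORMAD1 it stood at 85.4, 78.7 and 75.1 CPM, and in the double line at 62.4, 58.0 and 71.7 CPM. The 3 HORMAD1 libraries were the highest of the 12, and the lines without HORMAD1 and the double line overlapped with each other. HORMAD1 against control gave a log2 fold change of 0.21 (95% interval -0.01 to 0.44, edgeR adjusted p = 1). The double line against HORMAD1 gave -0.32 (0.802-fold, 95% interval -0.55 to -0.09, edgeR unadjusted p = 0.0089, adjusted p = 0.438). MDM2 had the interaction furthest from 0 of the 9 genes, -0.31 on the log2 scale (95% interval -0.63 to 0.01, edgeR unadjusted p = 0.0597, adjusted p = 0.841). An antisense gene, ENSG00000257181, shares 785 exon bases with MDM2 and had 84 to 158 counts per library.

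**Figure D3:**
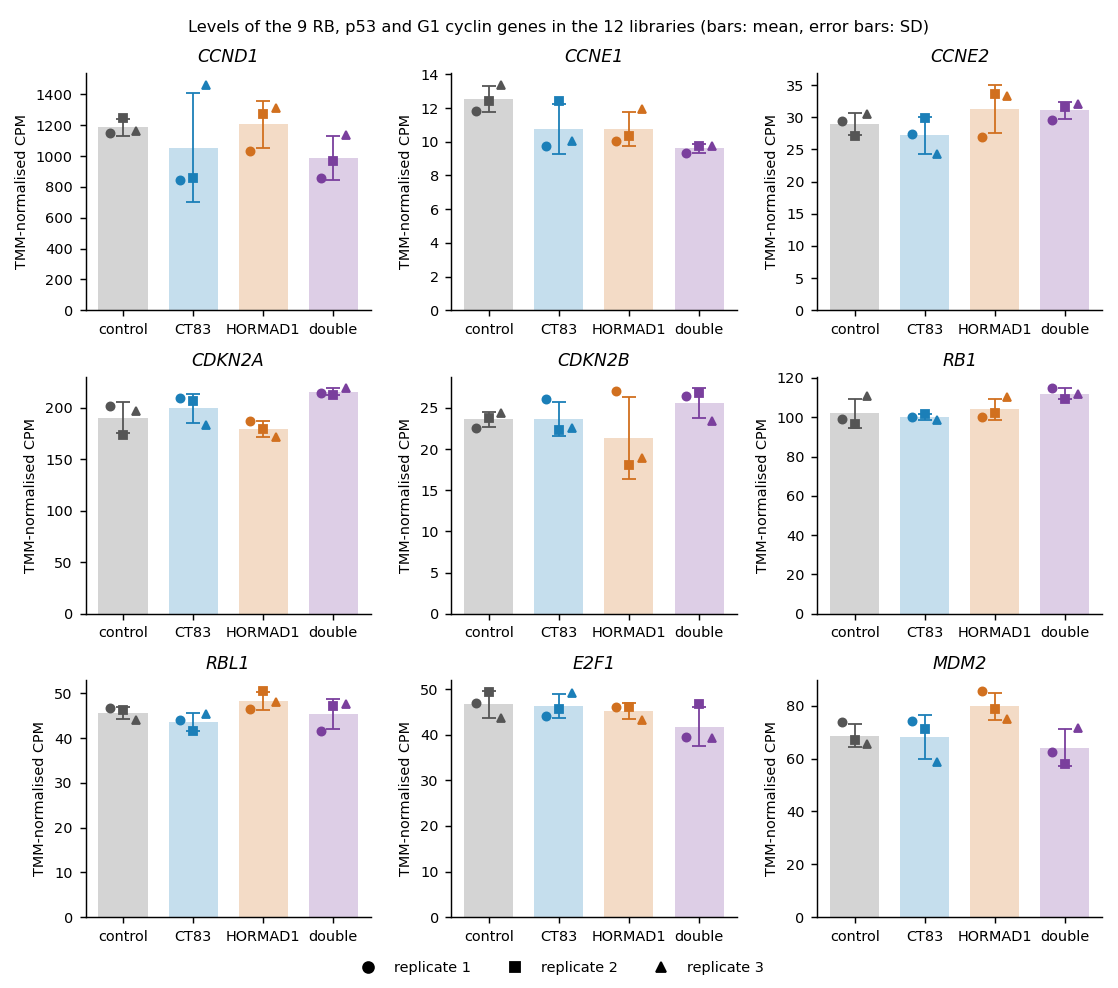
TMM-normalised CPM of the 9 network genes in the 12 libraries, with axes from 0. Bars are means of 3 libraries, error bars SD, and marker shapes the replicate number. CDKN2A is highest and CCNE1 lowest in the 3 double libraries, MDM2 is highest in the 3 HORMAD1 libraries, and CCND1 spreads widely in CT83.

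The libraries of a pair of lines did not overlap for 0 to 3 of the 9 genes, and each count stands beside the share over all genes. The count was 0 genes in CT83 against control (10.5% of all genes tested), 1 (MDM2) in HORMAD1 against control (7.56%), and 3 (CDKN2A, CCND1 and CCNE1) in the double line against control (15.4%). It was 3 (RB1, CDKN2A and CCNE1) in the double line against CT83 (17.9%), 3 (MDM2, CDKN2A and CCNE1) against HORMAD1 (12.2%), and 2 (MDM2 and RBL1) in HORMAD1 against CT83 (7.48%). In the test for any difference among the lines, CDKN2A had the smallest p of the 9 genes (edgeR unadjusted p = 0.0315, adjusted p = 0.913, rank 465 of 15616) and MDM2 the next (unadjusted p = 0.0489, rank 738).

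Ordered by mean level, no neighbouring lines were apart for RB1, RBL1, CDKN2B, CCND1, CCNE2 or E2F1. For CDKN2A the order was double, CT83, control and HORMAD1, and only the first step, double to CT83, was without overlap. For MDM2 it was HORMAD1, control, CT83 and double, and only HORMAD1 to control was without overlap. For CCNE1 it was control, HORMAD1, CT83 and double, and only the last step was without overlap.

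Between genes, levels are compared as CPM per kilobase of merged exons. CCND1 led with 229.6, followed by CDKN2A (45.4), E2F1 (17.97), RB1 (16.2), RBL1 (7.68), CCNE2 (6.74), CDKN2B (5.80), MDM2 (5.28) and CCNE1 (4.28). With the principal transcript as the length, MDM2 reached 27.8 and CDKN2A 153.1 per kilobase. RB1 (21.8) then stood above E2F1 (17.97), and CCNE2 (8.90) above RBL1 (8.05). The places of MDM2 and of these pairs in the order thus depend on which transcripts the reads came from. CCND1 led and CDKN2A was second with either length.

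Leaving out the 3 libraries with the highest length slope (control replicate 2, CT83 replicate 3 and HORMAD1 replicate 1) gave calls among network genes. This left 2 libraries in each of those lines and 3 in the double line. The libraries left out were picked with earlier results of these data known. Double replicate 1, which was kept, had a slope further from 0 (-0.16) than control replicate 2 (0.11). In the double line against HORMAD1, edgeR then called 3 of the 9 genes (2.16% of all genes): CDKN2A was higher by 0.29 ± 0.06 on the log2 scale (SE, adjusted p = 0.00821), CDKN2B higher by 0.47 ± 0.12 (adjusted p = 0.0437), and CCND1 lower, at -0.39 ± 0.09 (adjusted p = 0.0384). In HORMAD1 against CT83 edgeR called 2 of 9 (5.92% of all genes): CCND1 was higher by 0.61 ± 0.10 (adjusted p = 0.00389) and CDKN2A lower, at -0.24 ± 0.07 (adjusted p = 0.0321). The test for any difference among the lines called the same 2 genes (3.82% of all genes), CCND1 with an adjusted p of 0.0119 and CDKN2A with 0.0272. Against control, 0 of 9 passed in the CT83 line (119 of 15667 genes called), the HORMAD1 line (6 called) and the double line (13 called). CCND1 in CT83 was the nearest (log2 fold change -0.44 ± 0.10, edgeR adjusted p = 0.0614).

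These calls belong to the set of 9 libraries. No network gene was called when any 1 library was left out, nor when the length trend of each library entered the fit as an offset, with all 12 libraries kept (edgeR smallest adjusted p = 0.355, in the double line against HORMAD1). CDKN2A had nearly the same difference between the double line and HORMAD1 with 12 libraries (0.26) and with 9 (0.29). CCND1 changed more: HORMAD1 against CT83 went from 0.19 to 0.61, and the double line against CT83 changed sign, from -0.09 (SE 0.19) to 0.22 (SE 0.09), with no call in either case (edgeR adjusted p = 0.863 and 0.299). Of the libraries left out, CT83 replicate 3 had the highest CCND1 (1465 CPM) and the lowest CDKN2A (183.4 CPM) of its line. HORMAD1 replicate 1 had the lowest CCND1 (1032 CPM) and the highest CDKN2A (187.7 CPM) of its line. Leaving them out therefore widens the differences between HORMAD1 and CT83 in both genes by construction. For CDKN2B the double line against HORMAD1 went from 0.26 to 0.47 once HORMAD1 replicate 1, the highest library, was out. The part of the length trend in these results was not tested beyond the offset. CT83 replicate 3 also had the highest CT83 level of its line, and HORMAD1 replicate 1 the lowest HORMAD1 level of its line. The part of transgene level was not tested.

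**Figure D4:**
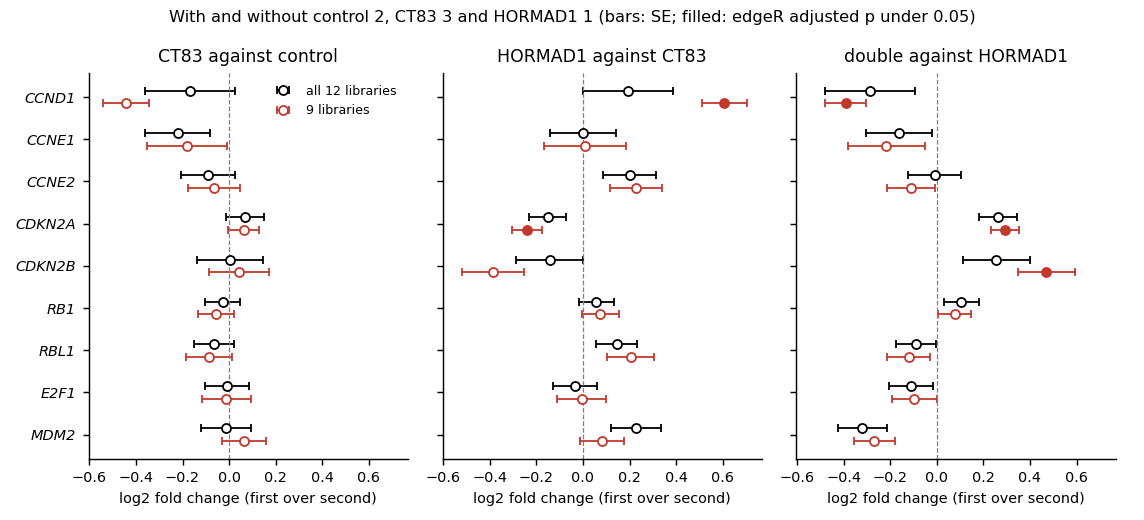
Log2 fold change (first line over second) of the 9 network genes in 3 comparisons, with all 12 libraries (black) and without control 2, CT83 3 and HORMAD1 1 (red). Bars are SE, and filled points passed an edgeR adjusted p under 0.05: 3 genes in the double line against HORMAD1, 2 in HORMAD1 against CT83 and 0 in CT83 against control, all with 9 libraries.

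The rest of the network was followed with 96 genes in 7 lists, of which 80 were tested. With 12 libraries edgeR called 0 of the 80 in every comparison, and so did DESeq2 and limma-voom, whose calls over all genes are given above. At an unadjusted p under 0.05 edgeR picked 6 of the 80 in the double line against HORMAD1 (7.59% of all genes) and 1 to 3 in each of the other comparisons (1.82% to 8.05%). Of 10 further pocket protein, E2F and DP genes, all tested, 6 stood above and 4 below control in the double line, with a median of 0.01 on the log2 scale, beside 0.01 in CT83 and 0 in HORMAD1. E2F2, a sister activator of E2F1, had the smallest p of the 80 over all lines. It stood at 20.2, 24.1 and 19.8 CPM in control, 17.9, 16.2 and 16.7 CPM in CT83, 17.4, 22.4 and 21.4 CPM in HORMAD1, and 13.1, 16.3 and 13.3 CPM in the double line. The double libraries lay below all control and HORMAD1 libraries (15.4% and 12.2% of all genes were without overlap in these pairs). Against control the log2 fold change was -0.58 (95% interval -0.88 to -0.29, edgeR unadjusted p = 7.6e-04, adjusted p = 0.652). The CT83 libraries also lay below control (10.5% of all genes without overlap) and overlapped with the double line. Their log2 fold change against control was -0.33 (95% interval -0.63 to -0.04, edgeR adjusted p = 0.984).

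Of 21 E2F target genes, all tested, 11 stood above and 10 below control in the double line, 7 and 14 in HORMAD1, and 3 and 18 in CT83, with medians of 0.01, -0.01 and -0.05. MYBL2, a transcription factor of late G1 and S phase, had the smallest p over all lines among them. Its line means were 296.4 ± 18.1 CPM in control, 261.6 ± 17.9 in CT83, 289.4 ± 15.8 in HORMAD1 and 238.3 ± 21.5 in the double line (SD, n = 3 each). Its log2 fold change in the double line against control was -0.31 (95% interval -0.50 to -0.13, edgeR adjusted p = 0.712). TK1, the thymidine kinase of S phase, stood on the other side, at 325.6 ± 34.7 CPM in control and 367.1 ± 1.67 in the double line. The targets thus had no common direction in the double line.

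Of 9 other G1 cyclin and kinase genes, 8 were tested, with medians against control of -0.06 in CT83, 0.06 in HORMAD1 and 0.09 in the double line. CDK6, a kinase partner of cyclin D1, stood at 175.0 ± 4.16 CPM in control, 166.1 ± 19.8 in CT83, 185.0 ± 21.9 in HORMAD1 and 160.1 ± 6.11 in the double line (SD, n = 3 each). CCND3, which encodes cyclin D3, stood at 150.2 ± 9.39 CPM in control and 160.0 ± 6.22 in the double line, and SKP2, a subunit of the ligase that removes p27, at 77.7 ± 4.04 and 73.8 ± 11.6 CPM. Of 5 other CDK inhibitor genes 4 were tested, with medians of -0.06, 0.02 and 0.02. CDKN1B, the gene of p27, ranged from 35.2 to 46.5 CPM over the 12 libraries, and CDKN1A, the gene of p21 and a p53 target, from 155.4 to 193.1 CPM.

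On the p53 side, 8 regulators and 18 of 19 target genes were tested. The targets had a median difference from control of 0.12 on the log2 scale in CT83 (12 above and 6 below), 0.02 in HORMAD1 (11 and 7) and 0.05 in the double line (12 and 6). XPC, a damage sensor of nucleotide excision repair, had the smallest p among them (edgeR unadjusted p = 0.079 over all lines, adjusted p = 0.91). It ranged from 15.5 to 27.0 CPM, with the top value in HORMAD1 replicate 1 and the next highest at 20.8 CPM (CT83 replicate 3). GADD45A stood at 174.7 ± 7.90 CPM in control, 162.5 ± 14.5 in CT83, 147.9 ± 4.99 in HORMAD1 and 154.4 ± 25.6 in the double line. Its edgeR unadjusted p over all lines was 0.166 (adjusted p = 0.91). The regulators had medians of 0.17, 0.01 and 0.01. Among them, USP7, the deubiquitinase of MDM2 and p53, stood at 130.6 ± 13.9 CPM in control, 139.5 ± 19.5 in CT83 and 110.9 ± 7.96 in the double line (SD, n = 3 each). Its interval for the double line against control was -0.47 to -0.003 on the log2 scale (95%, edgeR adjusted p = 0.886).

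Without the 3 libraries of highest length slope, edgeR called 5 of the 80 genes in the double line against HORMAD1 (2.16% of all genes). It called E2F2 (-0.62 ± 0.13 SE, adjusted p = 0.0106), MYBL2 (-0.32 ± 0.07, adjusted p = 0.0159) and CDK6 (-0.31 ± 0.06, adjusted p = 0.00853). It also called LTO1 (-0.35 ± 0.09, adjusted p = 0.0468) and ENSG00000264545 (0.29 ± 0.07, adjusted p = 0.0360), a gene that overlaps the CDKN2A and CDKN2B loci. In HORMAD1 against CT83, where it called 5.92% of all genes, it also called 5 of the 80: CDK6 (0.35 ± 0.07), LTO1 (0.49 ± 0.10), ENSG00000264545 (-0.32 ± 0.08) and the p53 targets AEN (0.37 ± 0.11) and FDXR (-0.38 ± 0.11). LTO1 and CCND1 share exon bases, and how many reads of either come from them was not tested. Of 24 genes beside or over the 9 network genes 11 were tested, with medians against control of 0.11, 0.15 and 0.10 in CT83, HORMAD1 and the double line with 12 libraries. Against control 0 of the 80 were called with 9 libraries, where edgeR called 119, 6 and 13 of 15667 genes in CT83, HORMAD1 and the double line. At an unadjusted p under 0.05 edgeR picked 11, 4 and 6 of the 80 in these lines. The share of all genes at that unadjusted p was not computed with 9 libraries, so these counts are not set against a background.

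**Figure D5:**
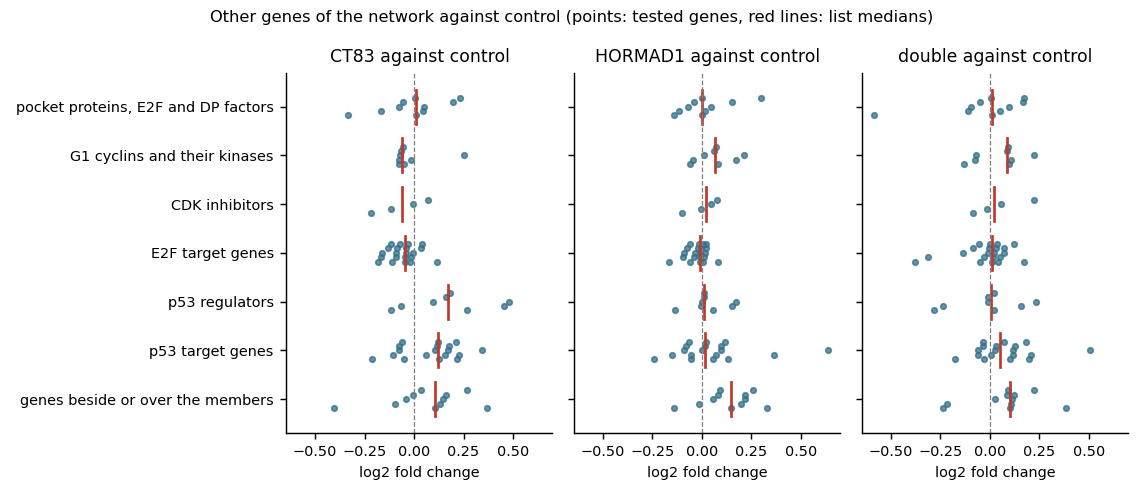
Log2 fold change against control of the tested genes of 7 lists around the network (points), with the median of each list (red lines), for the CT83, HORMAD1 and double lines with 12 libraries. No point passed an adjusted p under 0.05, and the medians of E2F targets lie at -0.05, -0.01 and 0.01.

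For each network gene, the tested genes most alike in log2 CPM over the 12 libraries were sought among 11095 candidates by Pearson's r. These are descriptions, since libraries share depth and the length trend, and so many candidates give high values. CCND1 was most like LTO1 (r = 0.97, Spearman rho = 0.97) and the keratin gene KRT80 (r = 0.96, rho = 0.94). CDKN2A was most like LMO4 (r = 0.96, rho = 0.96), E2F1 like POMT1 (r = 0.94, rho = 0.96), RB1 like CNOT10-AS1 (r = 0.93, rho = 0.92) and CCNE2 like GOLT1B (r = 0.92, rho = 0.92). MDM2 was most like LIX1L (r = 0.91, rho = 0.90), CDKN2B like LRIG2 (r = 0.90, rho = 0.83), RBL1 like MUS81 (r = 0.89, rho = 0.87) and CCNE1 like ARSB (r = 0.87, rho = 0.90). None of the 9 was the closest match of another.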

How the data were processed

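RNA sequencing of 12 HMLE libraries was analysed, 3 for each of 4 lines grouped by their labels. The values the authors deposited are expected counts, that is, estimates per gene with decimals. The tools named, per the submitters' processing notes, are STAR 2.7.5c, Trimmomatic 0.39, SAMtools and Picard, with the builds hg19 and hg38. How reads were counted, on which annotation and with what use of strand is not stated there. Per the labels' protocols ERCC RNA was added, but the files hold 0 such entries. Counts were rounded, which changed 6.75% of values, although raw counts had been assumed. In R 4.3.3, edgeR 4.0.16 (filterByExpr with a minimum count of 10, TMM, robust quasi-likelihood test) was fitted to 15616 genes in 12 libraries with 8 residual degrees of freedom, and p-values were adjusted over all genes. DESeq2 1.42.0, limma-voom (limma 3.58.1), other scalings, filters and lengths, and fits without libraries were alternatives. The fit was tested on simulated data. Replicates differed by more than sampling noise (chi-square per degree of freedom 2.54 to 26.41). Log2 CPM used a prior count of 2. Coordinates and exon lengths come from GENCODE 29 (GRCh38), windows from RefSeq (GRCh38.p14). The 9 genes and the lists were chosen with earlier results of these data known. All 9 genes are named. In each list the 3 genes with the smallest p over all lines may be named, as well as the genes most like each of the 9. Genes called with 9 libraries were named after their values were seen. Values of some single genes are left out here.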

Additional observations from a re-analysis of the deposited data

How the results depend on the processing

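The count of network genes called was 0 with all settings tried (other scalings, filters, tools, the groups compared alone, the length trend as an offset and each of 12 libraries left out) except one. Without control replicate 2, CT83 replicate 3 and HORMAD1 replicate 1 together, it was 3 in the double line against HORMAD1, 2 in HORMAD1 against CT83 and 2 in the test over all lines, and the cause was not tested. With 1 library left out the counts ranged from 0 to 0. Over all settings, 1435 recomputed differences of single genes stayed uncalled and 5 became called, all with those 9 libraries, and 0 with a difference past its SE changed sign. After line means were taken off log2 CPM, same-numbered libraries of different lines correlated between -0.54 and 0.60 (median -0.16), with 6 of 18 pairs over 0.1. Libraries of different lines with different numbers correlated between -0.65 and 0.67 (median 0.08), with 18 of 36 pairs over 0.1. Same-numbered libraries were thus not more alike by this measure, which also carries the length trend. Whether the numbers mark a shared batch was not tested further. With a replicate block edgeR called 0 of 9 genes in every comparison. Levels per kilobase moved with the transcript chosen for 5 of the 9 genes. Against control, SEs of single network genes on the log2 scale ranged from 0.08 (RB1) to 0.19 (CCND1) and did not follow depth alone: CCND1 had the most counts (9637 to 15316 per library).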
